A study of Saccharomyces cerevisiae with 6 samples.

Results

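The genes described here encode the vacuolar proteases of budding yeast and their protein inhibitors. They were chosen by name: spots whose platform annotation carries 1 of 9 symbols (PEP4, PRB1, PRC1, CPS1, APE2, APE3, DAP2, PAI3 and PBI2). Of these 9, 8 genes had a spot among the 5379 genes named on the array, each with a single spot, and 7 had a value on all 3 arrays. PRB1 is not among the genes that this annotation names and is not analysed here, and APE2 lacked a value on replicate 2. The rule uses symbols and no measured value, but the list was drawn up with earlier results of these data known.

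The study compared Saccharomyces cerevisiae strain S288C exposed to methanol at 5% for 2 h with untreated S288C grown for the same 2 h, both in YPD (polypeptone, yeast extract and glucose) with shaking at 25 °C. Methanol was given to exponentially growing cultures at an optical density of 1. Purified mRNA of the treated culture was labelled with Cy5 and that of the untreated culture with Cy3, and each pair was hybridised to 1 of 3 two-colour arrays, which the series describes as independent biological samples. Every slide was read at a high and again at a low laser setting, and both scans count as 1 replicate. Values are log2 ratios of methanol over untreated, given as mean ± SD over n = 3 arrays unless stated otherwise. The direction is likely, from the order of the channels, and the log base was taken as 2, since neither comes with the values. Were the direction the opposite, every sign below would turn.

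The vacuole is the yeast counterpart of the lysosome, where proteins delivered by autophagy, endocytosis and direct import are broken down to amino acids. Its proteases are made as inactive precursors. Proteinase A, the product of PEP4, starts a cascade in which proteinase B (PRB1), carboxypeptidase Y (PRC1) and other hydrolases are cut to their active forms. Small cytosolic proteins bind single proteases tightly: PAI3 encodes the inhibitor of proteinase A, PBI2 that of proteinase B, and TFS1 that of carboxypeptidase Y.

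Transcripts of the inhibitors and of 4 of the 5 tested proteases were higher after methanol. The inhibitor genes showed the largest differences, with PAI3 up 5.22-fold and PBI2 up 3.55-fold. Among the proteases, PEP4 rose 1.97-fold, PRC1 1.75-fold, APE3 1.43-fold and CPS1 1.39-fold, while DAP2 stood at 1.19-fold and did not pass the test. Of the 7 tested members 6 were called higher and 0 lower, in a data set where 26.0% of 4336 genes tested were called higher, 24.2% lower and 50.3% in either direction. The median log2 ratio of the 7 was 0.81, against −0.01 for all genes tested, and was 0.53 without replicate 2, where APE2 also entered the fit. A gene was called when its Benjamini-Hochberg adjusted p over all genes tested was under 0.05 in a limma fit. The ratios come from the mRNA of whole cultures, so more transcript per cell and a larger share of the mRNA pool cannot be told apart.

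**Figure D1:**
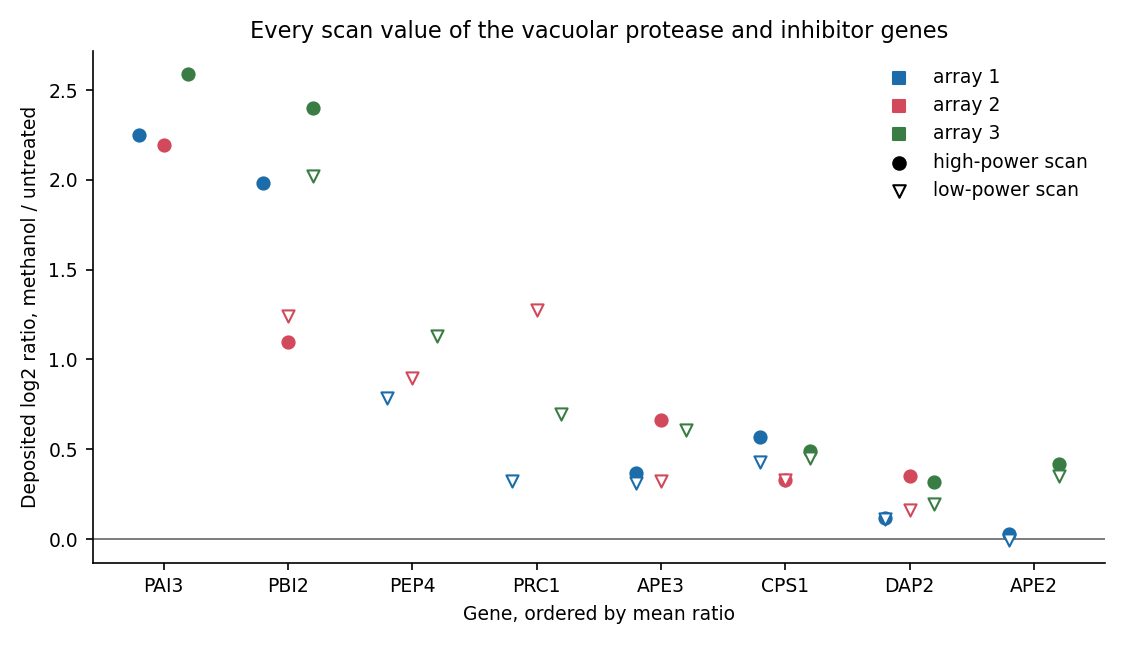
Deposited log2 ratio (methanol over untreated, before centring) of the 8 members with a spot, ordered by mean ratio, with a colour for each array, filled circles for high-power and open triangles for low-power scans. PAI3 has high-power values only and PEP4 and PRC1 low-power values only, and nearly every value lies above 0.

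PAI3 (YMR174C), the proteinase A inhibitor gene, had log2 ratios of 2.30, 2.24 and 2.61 on replicates 1, 2 and 3. All 3 arrays lay above those of every other member. Its mean of 2.39 ± 0.20 was the 32nd highest among all genes tested (limma adjusted p = 4.65e-05), and the 95% interval of the fold ran from 4.21 to 6.49. PAI3 had a value in the high-power scan of each array and in none at low power. The 1035 tested genes with that scan pattern had a median of 0.01, and 28.4% of them were called higher, close to the share of all genes.

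PBI2 (YNL015W) encodes the proteinase B inhibitor, which also takes part in vacuole fusion as a subunit of a complex with thioredoxin. Its log2 ratios were 2.03 on replicate 1, 1.22 on replicate 2 and 2.24 on replicate 3. Replicate 2 was the low one, and both of its scans gave a low value, 1.10 at high and 1.24 at low power. The mean of 1.83 ± 0.54 passed the test (limma adjusted p = 0.00042), with an interval of 2.57- to 4.92-fold. The spread of PBI2 across arrays exceeded that of 94.4% of genes tested.

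PAI3 and PBI2 are the 2 members that rose at least 2-fold, a size that 7.54% of all genes tested reached among the calls. On every array PAI3 was higher than PBI2, by 0.27, 1.02 and 0.38 in the log2 ratio. Their ranges are separated by a gap smaller than either gene's SD, and that order was not tested.

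PEP4 (YPL154C), the proteinase A gene at the head of the cascade, had log2 ratios of 0.83, 0.94 and 1.16. The 3 values lay close together, and the mean of 0.98 ± 0.16 exceeded that of 92.0% of genes tested (limma adjusted p = 0.000926). The interval of the fold was 1.60 to 2.43. PRC1 (YMR297W), the gene of carboxypeptidase Y, a serine carboxypeptidase, varied more: 0.37 on replicate 1, 1.33 on replicate 2 and 0.72 on replicate 3. Its mean was 0.81 ± 0.48 (limma adjusted p = 0.00965, interval 1.29- to 2.37-fold), and the mean without replicate 2 was 0.55. PRC1 was highest on the array where PBI2 was lowest.

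PEP4 and PRC1 each had a value in the low-power scan of every array and in no high-power scan. That scan pattern was rare, with 29 of the 4336 genes tested. The 29 genes had a median log2 ratio of 0.68, and 19 of them were called higher and 1 lower, a share of 65.5% higher. The part of this scan pattern in the ratios of PEP4 and PRC1 was not tested. Spots valued at both powers differed little between scans: the median high minus low difference was −0.02, −0.03 and −0.03 on replicates 1, 2 and 3. Adding it to the low-power values left PEP4 at 0.96 and PRC1 at 0.79. Neither gene is among the spots valued at both powers, so so small a shift cannot show what their high-power ratios would have been.

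The other tested members encode exopeptidases, which trim peptides from their ends. APE3 (YBR286W), the gene of aminopeptidase Y, had log2 ratios of 0.39, 0.54 and 0.63, a mean of 0.52 ± 0.12 (limma adjusted p = 0.0112, interval 1.17- to 1.76-fold). CPS1 (YJL172W), the gene of carboxypeptidase S, which is anchored to the membrane before it is released into the lumen, had 0.55, 0.38 and 0.50. Its mean was 0.47 ± 0.09 (limma adjusted p = 0.0150, interval 1.14- to 1.69-fold), with a value in all 6 scans. Both genes were higher on every array. Their calls held without replicate 2 (limma adjusted p = 0.0274 for APE3 and 0.0206 for CPS1) and were lost without replicate 1 or 3. Without replicate 1 the adjusted p was 0.0556 for APE3 and 0.111 for CPS1, and without replicate 3 it was 0.0806 and 0.0825, with log2 ratios between 0.44 and 0.59.

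DAP2 (YHR028C) encodes dipeptidyl aminopeptidase B, an integral protein of the vacuole membrane. Its log2 ratios were 0.16, 0.30 and 0.28, all above 0 and among the tightest of all genes, since 9.13% had a smaller SD. The mean of 0.25 ± 0.07 missed the threshold (limma adjusted p = 0.125). The interval of 0.976- to 1.45-fold takes in no change as well as a rise the size of that of CPS1. APE2 (YKL157W), the gene of an aminopeptidase that has also been placed outside the vacuole, had 0.06 on replicate 1 and 0.41 on replicate 3. With 2 arrays it was not part of the fit over 3, and a fit of genes valued on at least 2 arrays gave 0.23 (limma adjusted p = 0.312, log2 interval −0.20 to 0.67).

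By mean ratio the order was PAI3, PBI2, PEP4, PRC1, APE3, CPS1 and DAP2. PBI2 lay above PEP4 on all 3 arrays, by 0.85 ± 0.50, and CPS1 above DAP2 on all 3, by 0.22 ± 0.16. The 3 steps between PEP4, PRC1, APE3 and CPS1 each held on 2 of 3 arrays with overlapping ranges. Adjacent genes among those 4 proteases thus did not differ beyond their spread. PEP4 did lie above APE3 and CPS1 on every array, an order that was not tested. The plot against all genes shows the same layout, with the proteases on the upper flank of the distribution and the inhibitors in its upper tail.

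**Figure D2:**
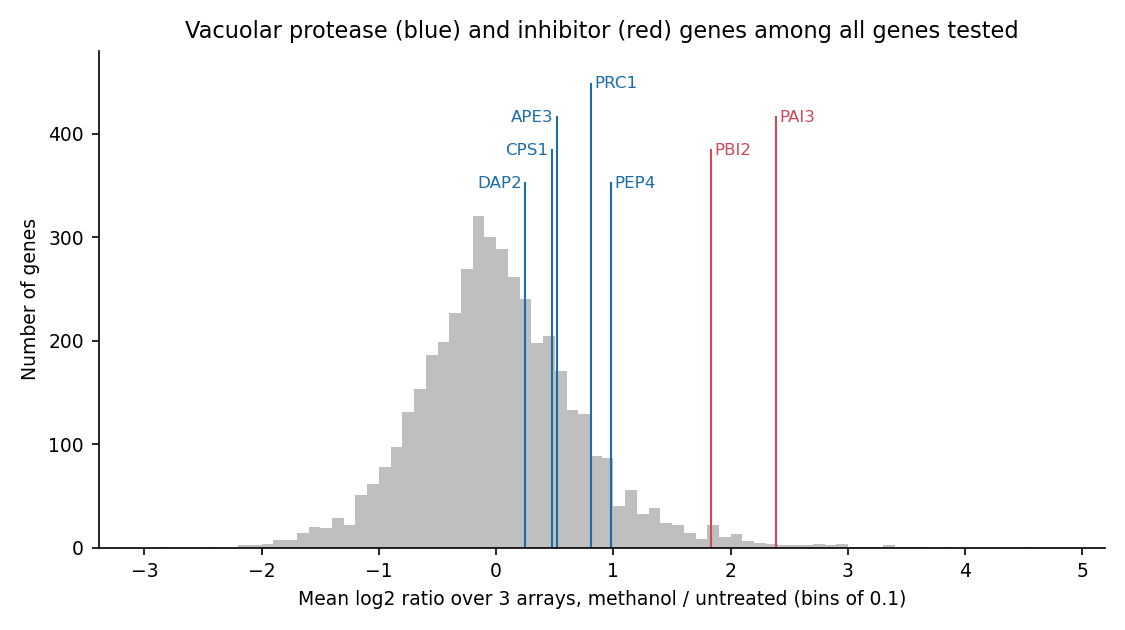
Number of genes (y axis) by mean log2 ratio of methanol over untreated in bins of 0.1 (x axis) for the 4336 genes tested, with the 5 protease genes in blue and the 2 inhibitor genes in red. The proteases lie between 0.25 and 0.98 and the inhibitors at 1.83 and 2.39.

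Each inhibitor was then set against the protease it binds, within each array. PAI3 exceeded PEP4 by 1.47, 1.30 and 1.46 in the log2 ratio, a difference of 1.41 ± 0.09, so that the fold of the inhibitor gene was 2.65 times that of the protease gene. The difference was nearly the same on every array. It sets high-power values of PAI3 against low-power values of PEP4. TFS1, the carboxypeptidase Y inhibitor gene, exceeded PRC1 by 1.62, 0.23 and 1.31 (1.05 ± 0.73), higher on 3 of 3 arrays and by least on replicate 2. The exact sign-flip permutation test gave p = 0.25 for both pairs, two-sided and also after adjustment over the 2 pairs, which is the smallest p that 3 arrays allow. PBI2 could not be set against PRB1.

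TFS1 (YLR178C) belongs to a list of 12 other vacuolar hydrolases and inhibitors, of which 11 were tested, with a median of 0.71. Of the 11, 7 (63.6%) were called higher and 2 (18.2%) lower, beside 26.0% and 24.2% of all genes tested. TFS1 had log2 ratios of 1.99, 1.56 and 2.03 (1.86 ± 0.26, limma adjusted p = 0.000103), near those of PBI2. AMS1, the gene of the vacuolar alpha-mannosidase, rose by 1.53 ± 0.46, ATH1, an acid trehalase gene, by 1.33 ± 0.13, and ATG15, the gene of the lipase that opens autophagic bodies, by 1.21 ± 0.25. APE1, the gene of aminopeptidase I, which enters the vacuole directly from the cytosol, rose by 1.15 ± 0.20, above each of the member proteases in mean ratio. ATG42, a serine carboxypeptidase gene related to PRC1, rose by 0.71 ± 0.18, close to PRC1 itself. RNY1, the gene of a vacuolar ribonuclease, rose by 0.46 ± 0.15. The genes of the polyphosphatases PPN1 (−0.73 ± 0.43) and PPN2 (−0.85 ± 0.13) fell. RNY1 was not called without replicate 1 or 3 (limma adjusted p = 0.0945 and 0.137), nor PPN1 without replicate 1 (0.0733), where 1 gene of the list was called lower.

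A further list held genes of the same protease families, most of which act elsewhere in the cell. Of 13 such genes 12 were tested, with 5 (41.7%) called higher and 1 (8.33%) lower, beside 26.0% and 24.2% of all genes tested. The median was 0.15, and it was 0.27 without replicate 2 and 0.08 without replicate 3. Those called higher include the vacuolar ATG42, already counted above. The aspartyl proteases anchored at the cell surface, relatives of proteinase A, went both ways: YPS1 (1.50 ± 0.05), YPS6 (1.24 ± 0.14) and YPS3 (1.16 ± 0.61) rose and MKC7 fell by 1.45 ± 0.11. A further aspartyl protease gene, YPS7, stood at 0.08 ± 0.16 and was not called. YPS1 had low-power values only, as PEP4 had. Among subtilisin-type relatives of proteinase B, YSP3 rose by 0.81 ± 0.32, a call that was lost without replicate 1 (limma adjusted p = 0.0536), and RRT12 stood at 0.22 ± 0.35. KEX1 (−0.23 ± 0.40), a carboxypeptidase gene of the Golgi, STE13 (0.00 ± 0.22), the Golgi counterpart of DAP2, AAP1 (−0.36 ± 0.27), the paralogue of APE2, and DUG1 (0.07 ± 0.23), a dipeptidase gene of the CPS1 family, did not pass the test. On this list, which does not hold every gene of these families, DAP2, APE2 and CPS1 had no called relative, although CPS1 itself was called higher.

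Other peptidases, of the cytosol, mitochondria, Golgi and further compartments and some of them of these same families, formed a list of 30 symbols. On the array were 29, and 25 were tested. Of these, 8 (32.0%) were called higher and 3 (12.0%) lower, beside 26.0% and 24.2% of all genes tested, with a median of 0.12 that was 0.08 without replicate 2. LAP2 (0.68 ± 0.08), LAP3 (0.61 ± 0.19), which encode cytosolic peptidases, and PCP1 (0.60 ± 0.14), the mitochondrial rhomboid protease gene, led. MAP1, the gene of the major methionine aminopeptidase, fell by 1.03 ± 0.18, and YTA12 (−0.49 ± 0.25) and PIM1 (−0.44 ± 0.30), mitochondrial protease genes, were lower. The list held 2, 3 and 3 genes called higher without replicate 1, 2 and 3, and 1 called lower without replicate 1 or 2. Without centring of the arrays 5 were called higher. YTA12 lost its call without replicate 1 or 2, with the high-power scans alone (limma adjusted p = 0.0786) and with high-power values first (0.0756). PIM1 lost it whichever replicate was left out (−0.28 without replicate 2), under the same scan choices (0.0522 and 0.0502) and with genes valued on at least 2 arrays (0.0523), and LAP3 without replicate 1 (limma adjusted p = 0.0507).

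**Figure D3:**
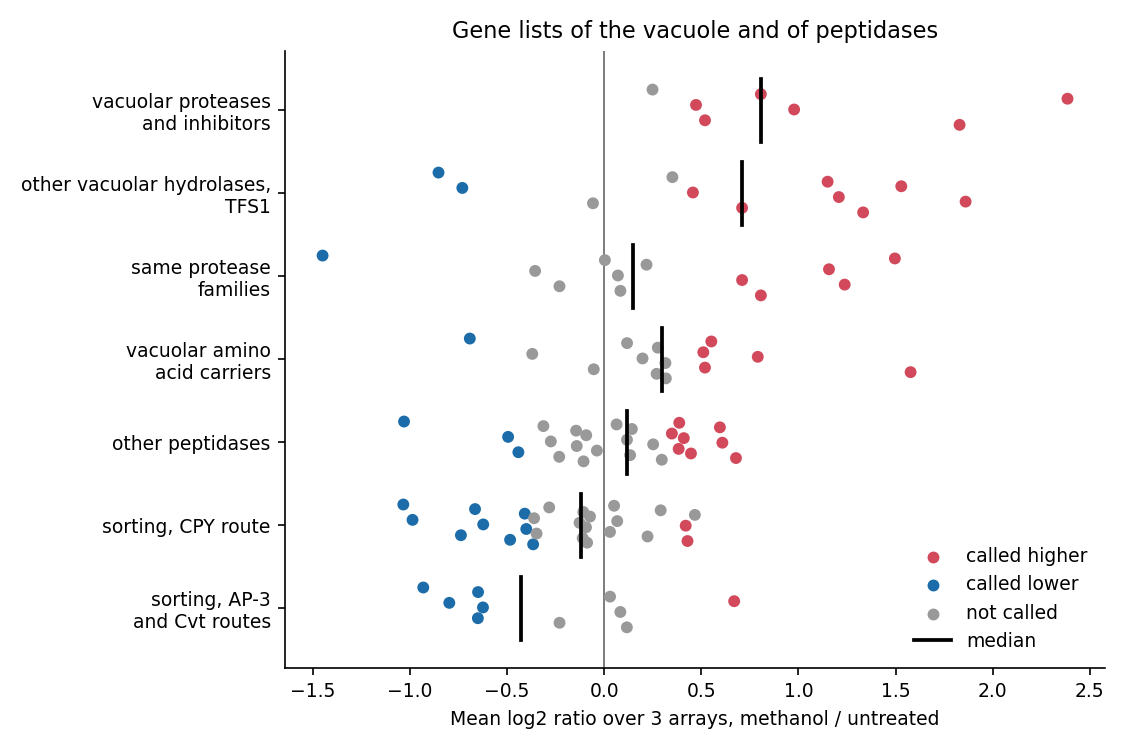
Mean log2 ratio of methanol over untreated (x axis) for each tested gene of the 7 lists, with genes called higher in red, called lower in blue and not called in grey, and a black bar at each list's median. The vacuolar proteases and inhibitors and the other vacuolar hydrolases have medians of 0.81 and 0.71, and both sorting lists have medians below 0.

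The proteases reach the vacuole through sorting machinery. On the route of carboxypeptidase Y, from its Golgi receptor through the endosome to vacuole fusion, 26 of 31 listed genes were tested, 2 (7.69%) were called higher and 9 (34.6%) lower, beside 26.0% and 24.2% of all genes tested, with a median of −0.12. The receptor gene PEP1 stood at −0.28 ± 0.17 (limma adjusted p = 0.107). VPS1, a dynamin-related GTPase gene, fell by 1.03 ± 0.27, VPS9, the gene of an exchange factor for endosomal Rab proteins, by 0.99 ± 0.25, and PEP3, a subunit gene of vacuole tethering complexes, by 0.74 ± 0.63. VTH1 (0.43 ± 0.17), a homologue of the receptor gene, and VAM7 (0.42 ± 0.09), a vacuolar SNARE gene, were the 2 called higher. Both lost their calls without replicate 1 or 3, where 0 genes of the list were called higher, and VAM7 also with high-power values first (limma adjusted p = 0.0512). PEP3 lost its call without replicate 1 or 2 (−0.40 without replicate 2). The genes called lower numbered 3 without replicate 1 and 5 without replicate 3, and the median was −0.20, −0.21 and −0.22 without replicate 1, 2 and 3. Over the 29 genes valued on at least 2 arrays the median was −0.28.

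The AP-3 adaptor and the cytoplasm-to-vacuole (Cvt) route carry cargo that bypasses the endosome, APE1 and AMS1 among them. Of 13 genes of these routes 10 were tested. Among them 1 was called higher and 5 (50.0%) lower, beside 26.0% and 24.2% of all genes tested. The median was −0.43, and it was −0.24 without replicate 1 and −0.26 without replicate 2. The AP-3 subunit genes APL5 (−0.93 ± 0.22), APL6 (−0.80 ± 0.27) and APM3 (−0.65 ± 0.43) fell, while the remaining subunit gene, APS3, stood at 0.08 ± 0.36 and was not called. ATG34, the gene of a receptor that brings AMS1 to the vacuole, rose by 0.67 ± 0.12. Without replicate 1, 2 genes were called lower, and over the 13 genes valued on at least 2 arrays the median was −0.23. APM3 lost its call without replicate 1 or 2 (limma adjusted p = 0.104 and 0.0618).

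Carriers that move amino acids across the vacuole membrane had 14 of 16 genes tested, with a median of 0.30. Of the 14, 5 (35.7%) were called higher and 1 (7.14%) lower, beside 26.0% and 24.2% of all genes tested. ATG22, the gene of an exporter of amino acids released by proteolysis, rose by 1.58 ± 0.44, with 1.24, 2.07 and 1.42 on the 3 arrays, and AVT6, another exporter gene, by 0.79 ± 0.09. VBA3 (0.55 ± 0.52) passed narrowly (limma adjusted p = 0.0490) and lost its call without replicate 1 or 3, being 0.26 without the latter. It also lost it without centring (0.0637), with genes valued on at least 2 arrays (0.0653) and with centring by spot blocks (0.0633). VBA4 fell by 0.69 ± 0.16 and lost its call without replicate 1 (limma adjusted p = 0.0516). Without replicate 1 or 3, 2 genes of the list were called higher, while 0 were called lower without replicate 1 and 2 without replicate 2. Without centring the counts were 3 higher and 2 lower.

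The genes whose ratios over the 3 arrays lay nearest to those of PEP4, by Euclidean distance among all genes tested, were PAU4, CBP4, DCW1, STP3 and TAZ1. Their distances ran from 0.084 to 0.178 and their means from 0.91 to 1.05. The likeness is one of size over 3 arrays of a single condition.

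In the order of genes on the reference chromosomes, the 7 tested members have 14 direct neighbours, of which 12 were tested. Of these 12, 6 were called higher and 3 lower, beside 26.0% and 24.2% of all genes tested, with a median of 0.32. PAI3 stands beside SIP18, a desiccation-linked hydrophilin gene on the opposite strand, so that both are transcribed away from the space between them. SIP18 was at 2.97 ± 0.25, and on the other side of PAI3 the stress gene DDR48 was at 0.45 ± 0.10, a call lost without replicate 1 or 3 (limma adjusted p = 0.109 and 0.119). APE3 lies between HAB1 (1.73 ± 0.23) and YBR287W (1.15 ± 0.30), which both rose, with mean ratios above that of APE3. PBI2 lies between PUB1, an RNA-binding protein gene that fell by 1.06 ± 0.11, and HEF3, a translation elongation factor gene at 0.53 ± 0.18, which was not called without replicate 1 (limma adjusted p = 0.108). No member overlaps its direct neighbours in that annotation.

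**Figure D4:**
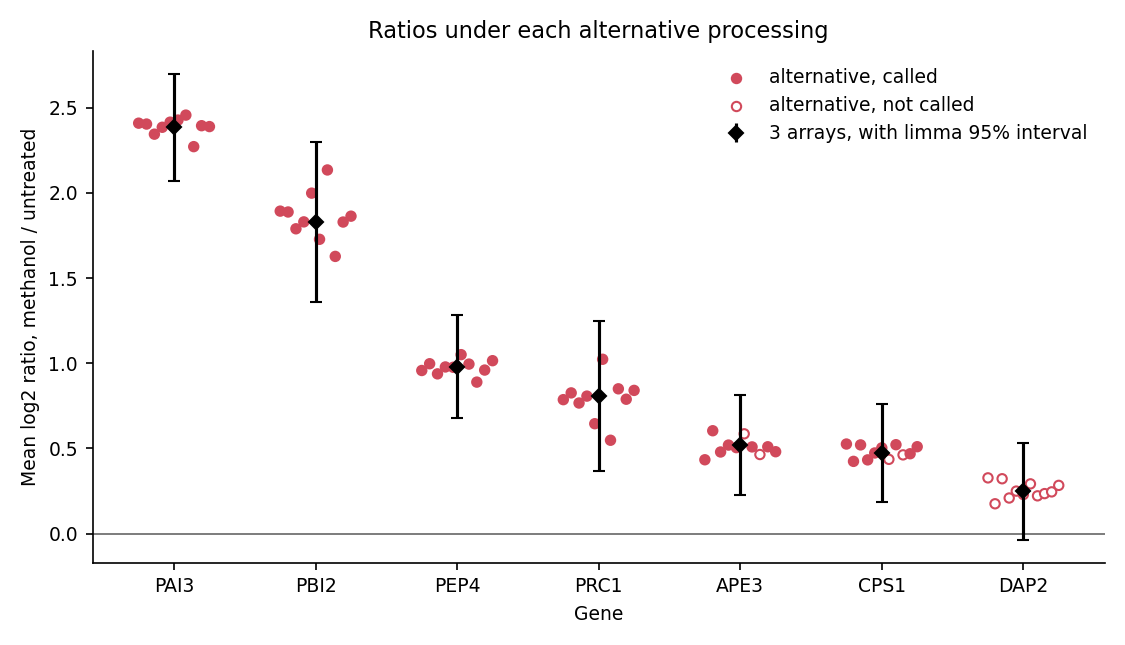
Mean log2 ratio of methanol over untreated (y axis) for the 7 tested members (x axis), with black diamonds and limma 95% intervals for the 3 arrays and red circles for each alternative processing, filled where the gene was called. PAI3, PBI2, PEP4 and PRC1 were called under every alternative that could be fitted, APE3 and CPS1 lost the call under 2 each, and DAP2 was called under none.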

How the data were processed

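The deposited values are log ratios of the 2 channels, 1 column per scan, read here as log2. Per the labels, the authors used spots with flag 0 for a LOWESS normalization; image analysis, background correction and genome build are not given in the sources used here. Of 6912 spots, the platform annotation names a gene for 5446, and names were updated through the R64 gene table. High-power scans held values for 4714 to 5842 spots and low-power scans for 1881 to 3634, on 3 arrays, whose number limits the precision; no intensities were used, so signal over background is unknown. No array had swapped dyes, so any dye effect of a gene is part of its ratio.

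Available scans were averaged per array, spots averaged per gene, and each array centred on its median gene (−0.05, −0.05 and −0.02 before). Genes valued on all 3 arrays (4336) were fitted in R 4.3.3 with limma 3.58.1, whose moderated test asked whether the mean ratio of a gene differed from 0, with Benjamini-Hochberg adjustment over all of them, and every adjusted p of a gene comes from that fit or its stated alternative. The fit was tested on simulated data with known answers, drawn as independent noise with a small set of genes changed. Those data held no dye effect, no missing scans and a far smaller share of changed genes than the 50.3% called here. The simulation therefore says nothing about the fit under those conditions. Members and lists were chosen with earlier results of these data known, so counts of lists carry no test; 1 list symbol matched no gene. Named genes are all members, all called genes of the other vacuolar hydrolases and of the same protease families, the 3 highest and 3 lowest called genes of other lists, and the 5 nearest to PEP4; further names were chosen after their values were seen. Alternatives were either scan alone, high-power values first, no centring, at least 2 arrays, array weights and each replicate left out; a shift between scans and centring by 8 spot blocks were chosen after seeing the data. Promoter motifs were not searched, as no sequences were used here.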

Additional observations from a re-analysis of the deposited data

How the results depend on the processing

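With 3 arrays and no intensities, small ratios such as those of APE3, CPS1 and DAP2 are the least certain. Over all alternatives no member changed sign. PAI3 ranged from 2.27 to 2.46, PBI2 from 1.63 to 2.13, PEP4 from 0.89 to 1.05, PRC1 from 0.55 to 1.02 and DAP2 from 0.17 to 0.33. With one replicate left out, APE3 ranged from 0.46 to 0.59 and CPS1 from 0.44 to 0.52, the number of members called higher from 4 to 6 and their median from 0.53 to 1.02. With the high-power scans alone, 3 of 4 tested members were called higher and the median was 1.21, and with the low-power scans alone the median was 0.43; fewer members have values in a single scan. Over all genes, 431 were called higher and 485 lower with the low-power scans alone, where 1710 were tested, and with one replicate left out 672 to 1218 were called higher and 575 to 1120 lower. In the lists, the low-power scans alone gave 3 higher and 0 lower of 6 relatives of the proteases, 0 and 1 of 3 genes of the carboxypeptidase Y route, 0 and 3 of 4 of the AP-3 and Cvt routes, 3 and 2 of 8 carriers and 4 and 1 of 14 other peptidases, since fewer genes have low-power values. The high-power scans alone gave 3 higher of 9 relatives, high-power values first gave 1 higher on the carboxypeptidase Y route, centring by blocks gave 2 lower relatives, and array weights gave 2 lower carriers. Without centring, 5 other peptidases and 3 carriers were higher. The PAI3 to PEP4 difference ranged from 1.37 to 1.46 and that of TFS1 to PRC1 from 0.77 to 1.46. The series has a single group, in which each array sets treated against untreated RNA, so the pairing is already within every ratio tested.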
